A study of Rattus norvegicus with 6 samples.

Results

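Heat shock and chaperone genes were followed in blood vessel endothelial cells of rat skin, with and without the gene of interleukin-33. The 8 genes chosen were the HSP70 proteins Hspa1a, Hspa1b, Hspa8 and Hspa5, the HSP110 protein Hsph1, Hsp90aa1 of the HSP90 family, the cochaperone Dnajb1 and the small heat shock protein Hspb1. They were taken by gene symbol, and 6 of the 8, among 15037 gene symbols in all, had a probeset with a name in the platform annotation. Hspa1b and Dnajb1 had none, so no value is given for either. All 6 passed the filter on low signal, a mean of at least 3.51. That value lies below the medians of the negative control probesets, 4.01 to 4.44, so passing does not show signal above background.

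Each of the 6 Affymetrix arrays held RNA of 1 Sprague-Dawley rat. The knockout animals 28, 27 and 52 carried the genotype IL-33 knock-out, and the animals 34, 45 and 37 were wildtype. In each group 2 animals were female and 1 was male (52 and 37). The labels used here give no age and do not say how the allele was made. Abdominal skin had been digested with collagenase and DNase for 2 h at 37 °C, a step that all 6 samples share. Cells carrying CD45 or Lyve-1 were removed on magnetic columns before those with CD31 were kept. All values are log2 expression as deposited, and differences are knockout minus wildtype on that scale unless another contrast is named. Values of single animals are given in the order 28, 27, 52 for the knockout and 34, 45, 37 for the wildtype. The probesets differ in their probes, so levels of different genes are not compared.

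Chaperones bind unfolded protein and keep it from clumping while it folds. Cytosolic HSP70 proteins work in cycles set by J-domain partners such as Dnajb1 and by HSP110 nucleotide exchange factors such as Hsph1, and they pass clients on to HSP90. When unfolded protein builds up in the cytosol, the factor Hsf1 binds heat shock elements and raises the inducible genes. Hspa8 is made at a high rate without stress. Hspa5, also known as BiP, is the HSP70 of the endoplasmic reticulum (ER), and the ER unfolded protein response raises it through ER stress elements. Freshly dissociated cells are known to switch on stress genes of this kind.

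The elements can be read in the RefSeq promoters of assembly GRCr8, which are shown because heat shock elements and ER stress elements are the known entry points of both responses. The 250 bases before the annotated start were searched for the inverted repeats GAANNTTC and TTCNNGAA, each its own reverse complement, for a longer form in which GAANNTTC is followed by NNGAA, on both strands, which contains both of them, and for the ER stress element, CCAAT and CCACG with 9 free bases between them, on both strands. Of 33469 rat promoters 13.5% held either short repeat, 0.663% the longer one and 0.0657% the ER stress element. The table held promoters for 6 of the 8 genes, and 4 are printed from 5′ to 3′ with the matches in capitals. They lie at chr8:50080264-50080513 (plus strand, Hspa8), chr12:10427118-10427367 (plus strand, Hsph1), chr12:26432302-26432551 (minus strand, Hspb1) and chr3:38452766-38453015 (plus strand, Hspa5).
Hspa8: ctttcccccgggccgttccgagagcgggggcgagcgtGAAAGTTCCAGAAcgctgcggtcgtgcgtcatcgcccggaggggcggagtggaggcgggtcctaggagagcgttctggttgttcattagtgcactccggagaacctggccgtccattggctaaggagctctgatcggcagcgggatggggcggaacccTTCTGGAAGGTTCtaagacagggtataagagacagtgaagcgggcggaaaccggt
Hsph1: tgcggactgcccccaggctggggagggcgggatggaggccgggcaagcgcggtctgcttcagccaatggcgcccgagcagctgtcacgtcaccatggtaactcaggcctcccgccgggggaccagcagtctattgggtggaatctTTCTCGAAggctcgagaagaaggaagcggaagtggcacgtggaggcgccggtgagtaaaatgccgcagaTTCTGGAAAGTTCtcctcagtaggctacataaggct
Hspb1: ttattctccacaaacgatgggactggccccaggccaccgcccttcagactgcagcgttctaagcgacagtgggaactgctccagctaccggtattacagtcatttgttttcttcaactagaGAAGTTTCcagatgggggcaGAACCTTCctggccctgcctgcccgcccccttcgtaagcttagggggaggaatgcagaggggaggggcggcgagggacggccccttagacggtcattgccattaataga
Hspa5: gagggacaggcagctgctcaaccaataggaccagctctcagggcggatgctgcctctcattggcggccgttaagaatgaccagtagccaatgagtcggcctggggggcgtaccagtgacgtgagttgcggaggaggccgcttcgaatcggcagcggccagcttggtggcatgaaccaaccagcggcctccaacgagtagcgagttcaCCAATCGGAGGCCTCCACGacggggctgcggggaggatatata

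Hspa8 held the longer heat shock element at 213 to 201 and at 55 to 43 bases before its start, and Hsph1 at 36 to 24 bases before its start, beside a short repeat at 105 to 98. Hspb1 held short repeats at 129 to 122 and at 109 to 102 bases. Dnajb1 held 1 short repeat, at 11 to 4 bases before its start. Hspa5 held no heat shock element in this window and 1 ER stress element, at 43 to 25 bases. The window before the annotated start of Hspa1a held none of these letters. A match of letters is a description and not a measured site.

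Before the chaperones are compared, 3 properties of the arrays bear on them. The highest value of an array was 19.70 to 19.93, and 22 to 49 probesets per array shared it exactly, so genes there have no order. Il33 itself, the check of the labels, was 8.07, 8.37 and 9.82 in the knockout animals against 13.86, 16.32 and 16.60 in the wildtype animals (difference -6.84, SE 0.73, limma adjusted p = 0.0438). The call was lost when any 1 of 5 arrays was left out (adjusted p = 0.0676 to 0.654) and held without wildtype 34 (adjusted p = 0.00193). The endothelial markers Cdh5 and Plvap were near the highest value on every array, and the median of 9 measured blood endothelial markers was 14.76 to 15.23. The arrays also fell into a pair of classes by the mean signal of 8 bacterial and phage control probesets, which hold no rat RNA. It was 8.82, 8.91 and 9.33 on arrays 52, 37 and 27, called low control signal here, and 10.12, 10.26 and 10.42 on arrays 45, 28 and 34, called high.

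None of the 6 chaperone genes measured was called between knockout and wildtype (limma, adjusted p = 0.999 for each; 0 of 6 at an unadjusted p under 0.05). Of all 11577 genes tested 0.00864% were called, that is Il33 alone, and 1.98% reached an unadjusted p under 0.05. Knockout and wildtype values overlapped for all 6 chaperone genes. Of all genes tested 6.25% did not overlap, 3.36% with the knockout higher and 2.89% with it lower. The fitted difference was above 0 for 6 of 6, with a median of 0.32, but for Hspa8 it reflects the ceiling, and 54% of all genes tested were above 0 with a median of 0.033. With these numbers of animals the median standard error over all genes was 0.39. The p-values rest on the spread between animals, which limma moves for each gene toward a value shared by all genes tested.

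Hspa8, the constitutive HSP70 of the cytosol, stood at the highest value of its array on all 6 arrays. It read 19.76, 19.78 and 19.93 in the knockout animals against 19.76, 19.70 and 19.93 in the wildtype animals. These are the maxima of the arrays themselves, so the fitted difference of 0.027 is a difference between maxima and no measure of Hspa8. The gene is saturated in both groups and no fold can be given. Of all genes tested 36, or 0.311%, lay within 0.5 of the maximum on every array. No other chaperone gene of the 6 came within 1.0 of the maximum on any array: the closest, Hsp90aa1, stayed 1.23 to 1.68 below it. The array design lists the Hspa8 probeset as unmapped.

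Hspa1a, the heat-inducible HSP70, spanned 0.69 log2 units over the 6 animals. It was 11.15, 11.33 and 11.35 in the knockout animals against 11.65, 11.17 and 10.96 in the wildtype animals. The wildtype animals held both the highest and the lowest value, and all knockout values lay between them. Means were 11.28 ± 0.11 and 11.26 ± 0.35 (SD, n = 3 each), with a difference of 0.017 (95% interval -0.72 to 0.75, limma adjusted p = 0.999). Its spread within groups, a pooled SD of 0.26, lay at the 13th percentile of all genes tested, where the median gene had 0.47. RefSeq lists Hspa1b both as a gene of its own and as another name of Hspa1a. The copies are near-identical and the probes may read RNA of both.

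Hsph1, the HSP110 exchange factor, was 7.59, 8.95 and 7.87 in the knockout animals against 7.30, 7.92 and 7.97 in the wildtype animals. Knockout 27 alone stood above the other 5 arrays. The means were 8.14 ± 0.72 and 7.73 ± 0.37 (SD, n = 3 each), a difference of 0.41 (95% interval -0.54 to 1.35, limma adjusted p = 0.999). Without knockout 27 the group means were equal, with a fitted difference of 0. On arrays 28, 34 and 45 Hsph1 lay below the lymphatic marker Reln (8.58, 8.88 and 8.55), itself within the upper range of the negative control probesets.

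Hsp90aa1, the inducible cytosolic HSP90 that completes folding of kinases and receptors, was 18.53, 18.55 and 18.63 in the knockout animals against 18.36, 18.02 and 18.61 in the wildtype animals. The knockout values lay close together, and wildtype 45 was the lowest array. The means were 18.57 ± 0.05 and 18.33 ± 0.30 (SD, n = 3 each), a difference of 0.24 (95% interval -0.47 to 0.95, limma adjusted p = 0.999). Without wildtype 45 the difference was 0.085.

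Hspb1, an ATP-independent chaperone also known as Hsp27 or Hsp25 that binds actin filaments and unfolding protein, varied most of the 6. It was 15.93, 13.40 and 14.44 in the knockout animals against 12.76, 14.43 and 15.03 in the wildtype animals. The highest array was a knockout and the lowest a wildtype, and the other 4 were interleaved. The means were 14.59 ± 1.27 and 14.07 ± 1.18 (SD, n = 3 each), a difference of 0.52 (95% interval -1.08 to 2.11, limma adjusted p = 0.999). Its pooled SD of 1.22 lay at the 97.9th percentile of all genes tested. The sign turned on leaving out knockout 28 (-0.15) or wildtype 34 (-0.14).

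Hspa5, the ER chaperone, had the largest fitted difference of the 6. It was 17.30, 18.51 and 18.56 in the knockout animals against 16.44, 17.16 and 18.61 in the wildtype animals. Wildtype 37 was the highest array of all, and the other wildtype arrays were the lowest. The means were 18.12 ± 0.71 and 17.40 ± 1.11 (SD, n = 3 each), a difference of 0.72 (95% interval -0.57 to 2.01, limma adjusted p = 0.999). Without wildtype 37 the difference was 1.32 with no overlap between the groups (unadjusted p = 0.0214, limma adjusted p = 0.521), and without wildtype 34 it was 0.24.

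**Figure D1:**
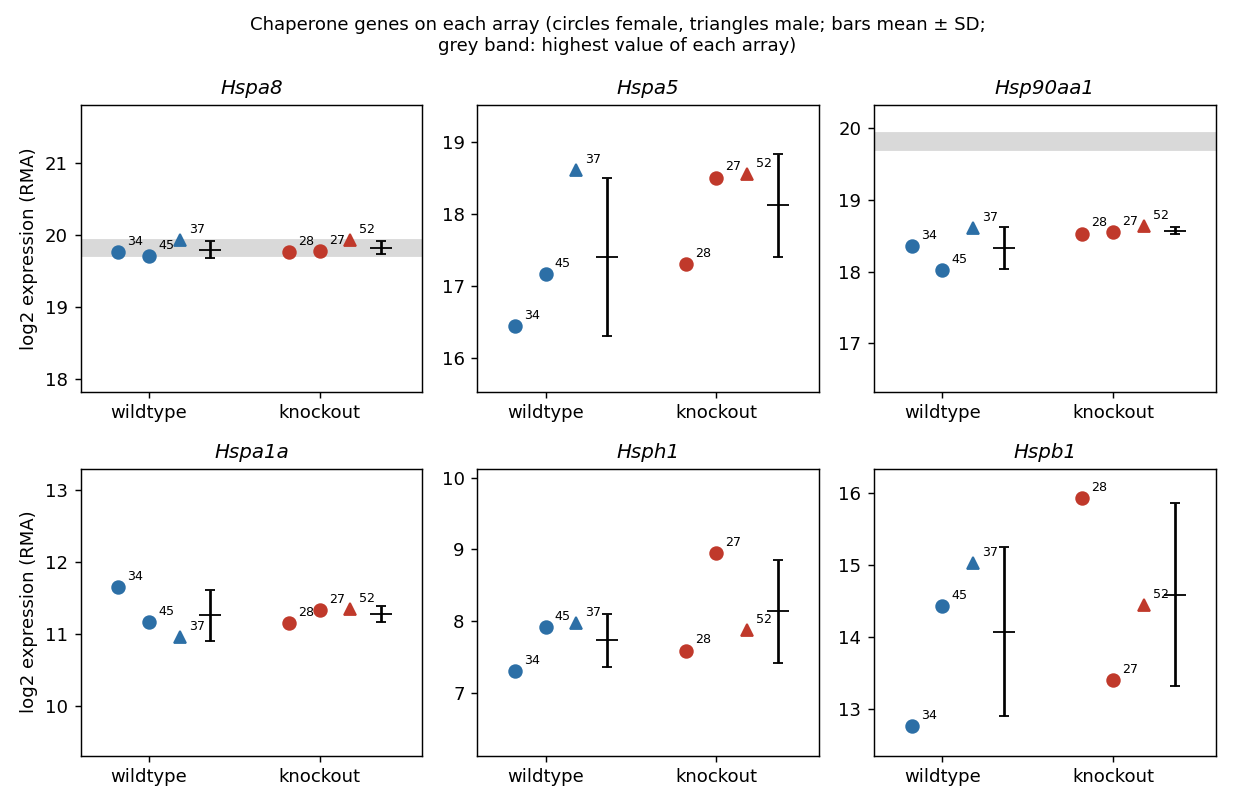
Log2 expression of the 6 measured chaperone genes on each array, with wildtype in blue and knockout in red, circles for females and triangles for males, the animal number beside each point, and bars for the mean ± SD of 3 animals. Each panel spans 4 log2 units; the grey band marks the highest values of the arrays, 19.70 to 19.93, on which every point of Hspa8 lies, while Hspa5 and Hspb1 spread over 2.17 and 3.17 log2 units.

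Inducible and constitutive chaperones were set side by side by their differences between genotypes. Of the 6 genes counted as inducible by heat 4 were measured, and their differences were 0.017 for Hspa1a, 0.24 for Hsp90aa1, 0.41 for Hsph1 and 0.52 for Hspb1, with a median of 0.32. The pair made without stress gave 0.72 for Hspa5 and no usable value for saturated Hspa8, so the fitted median of 0.37 over that pair stands for Hspa5 alone. Each of the 4 inducible intervals contained 0 and the interval of Hspa5 contained all 4 inducible differences. No test was made of the difference between the classes, since their genes were chosen with results of these data known. Leaving out knockout 27 brought the inducible median to 0.125, and the females alone gave 0.505.

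Differences between genotypes were also read within each sex. In the 4 females the difference was 1.105 for Hspa5, 1.07 for Hspb1, 0.66 for Hsph1, 0.35 for Hsp90aa1 and -0.17 for Hspa1a. In the male pair the knockout differed from the wildtype by -0.05, -0.59, -0.10, 0.02 and 0.39 in the same order. The sign was thus opposite for Hspa5, Hspb1, Hsph1 and Hspa1a. A test of the interaction passed for none of them (limma adjusted p = 0.999 for each; interaction terms -1.155, -1.66, -0.76 and 0.56, unadjusted p = 0.24 to 0.458), and it passed for 0 of all genes tested, with 1.03% at an unadjusted p under 0.05. It rests on 1 male of each genotype.

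**Figure D2:**
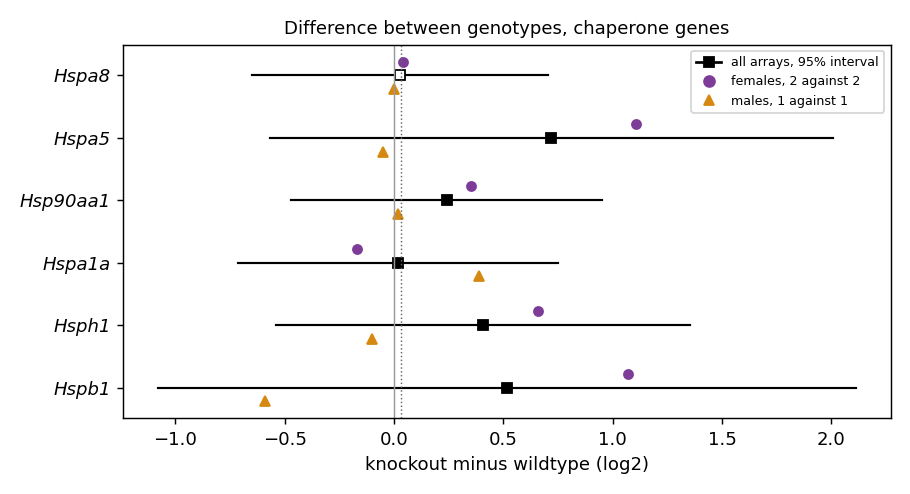
Difference between knockout and wildtype on the log2 scale for each measured chaperone gene, as black squares with the 95% interval of limma over all arrays, purple circles for the 4 females and orange triangles for the male pair. Every interval crosses 0; the open square marks saturated Hspa8, and the dotted line is the median of all genes tested, 0.033.

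Between the sexes, with genotype in the model, Hspa5 was higher in the males by 1.23 (SE 0.45, unadjusted p = 0.0229, limma adjusted p = 0.208), in 2 of 2 males against each of the 4 females, and it did not pass. The males had 18.56 and 18.61, and the females 17.30, 18.51, 16.44 and 17.16. For Hsp90aa1 the male arrays also lay above all females, by 0.255 on average (adjusted p = 0.689), and Hspa8 followed the higher array maximum of the males. Hspa1a differed by -0.17, Hsph1 by -0.02 and Hspb1 by 0.605, with overlap. The difference was above 0 for 4 of the 6, beside 61.5% of all genes tested. Of all genes tested 31.7% did not overlap between the sexes, 23.4% being higher in both males, and 0.0259% were called. Both males are arrays of low control signal. With that class in the model Hspa5 differed between the sexes by 0.21 (limma adjusted p = 0.974), and without wildtype 37 by 0.655 (adjusted p = 0.919).

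Hspa5 did not overlap between the classes of control signal. It was 18.51, 18.56 and 18.61 on the arrays 27, 52 and 37 of low control signal and 17.30, 16.44 and 17.16 on arrays 28, 34 and 45 of high control signal. The classes were thus apart by 1.59, with means of 18.56 ± 0.05 and 16.97 ± 0.46 (SD, n = 3 arrays each). Each class holds both genotypes. Within the high class knockout differed from wildtype by 0.50 (1 array against 2) and within the low class by -0.075 (2 against 1), and with the class as a block the difference was 0.21 (limma adjusted p = 0.999). The classes are read from the arrays and are not groups of the study, so they were not tested.

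Of the other chaperone genes, Hsp90aa1 did not overlap between the classes either (low minus high 0.29), and Hspa8 again followed the maxima. The classes were barely apart for Hsp90aa1, with 18.55 on array 27 of the low class and 18.53 on array 28 of the high class. Hspa1a, Hspb1 and Hsph1 overlapped, with -0.11, -0.083 and 0.66. Over all genes tested 17.2% were higher on every array of low control signal and 7.36% lower. For Hspb1 the genotype difference was 2.335 within the high class and -1.11 within the low class. The medians of 3 of the 7 marker lists did not overlap between the classes, those of blood endothelium (15.12 to 15.23 at low and 14.76 to 15.08 at high control signal), keratinocytes and pericytes. The median of the keratinocyte list (6 of 10 markers measured, 1 of them near background on every array) was 8.405 to 8.80 on arrays of low control signal and 11.61 to 15.185 on the others. By genotype it was 8.72 to 11.61 in the knockout and 8.405 to 15.185 in the wildtype. The median of the 7 pericyte and smooth muscle markers, 2 of them near background on every array, was 12.87 to 13.10 against 11.07 to 11.35. By genotype it was 11.35 to 12.87 in the knockout and 11.07 to 13.10 in the wildtype. The other 4 lists overlapped between the classes: fibroblast 9.06 to 10.37 at low and 10.15 to 12.69 at high control signal, leukocyte 5.58 to 6.225 and 6.195 to 8.695, lymphatic 5.24 to 8.56 and 7.62 to 8.29, and erythroid 7.29 to 8.205 and 6.175 to 10.125. With the keratinocyte median as a covariate, the difference of Hspa5 between genotypes was 0.003 (adjusted p = 0.999). The part of these cells, of sex and of the control signal in the level of Hspa5 was not tested, and in bulk RNA fewer cells of a type and less RNA per cell cannot be told apart.

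Other genes of the ER unfolded protein response were read over the same arrays. Of the 22 genes of that list tested, Hspa5 included, 10 (45.5%) were higher on every array of low control signal and 0 lower on every one, beside 17.2% and 7.36% of all genes tested. Atf4, at the ceiling on 3 arrays, was among the 10. Hsp90b1, the HSP90 of the ER, was 11.63, 12.17 and 12.41 on arrays 27, 52 and 37 and 10.42, 10.16 and 8.59 on arrays 28, 34 and 45. Herpud1, a partner of ER-associated degradation, was 9.55, 9.89 and 9.99 against 9.39, 8.12 and 8.81. Dnajc3, a J protein that works with Hspa5, was 7.70, 7.89 and 7.56 against 6.40, 7.16 and 7.11. On every array but 37 Dnajc3 lay below the markers Reln or Myh11, both near background throughout, so its difference is of low signal. None of the 22 was called between genotypes (0 at an unadjusted p under 0.05), and 15 lay above 0, with a median difference of 0.19 that became 0.029 with the class as a block, 0.0017 without wildtype 34 and 0.435 without wildtype 37.

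**Figure D3:**
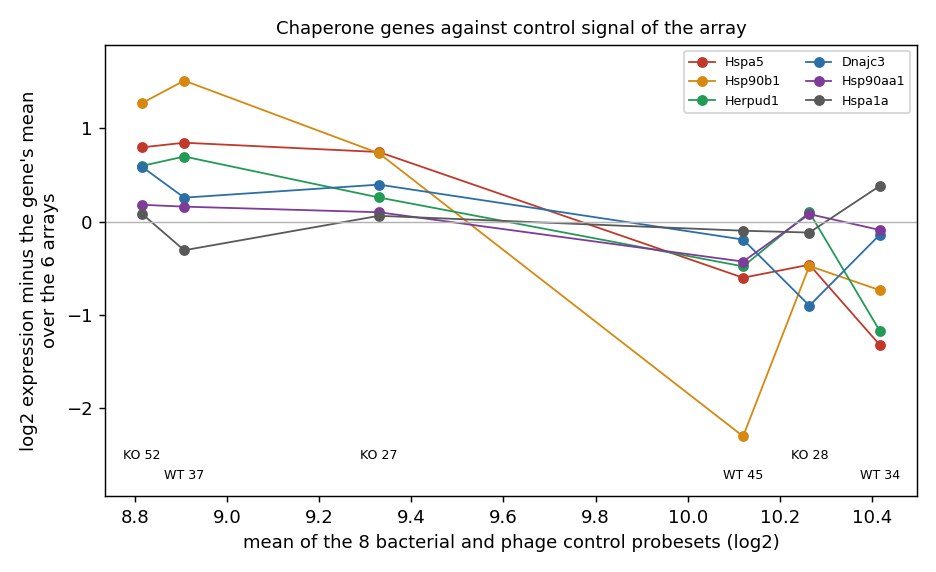
Log2 expression of 6 chaperone and ER stress genes minus each gene's mean over the arrays, against the mean log2 signal of the 8 control probesets of the array; KO and WT with the animal number stand under the points, and lines only join the points of a gene. Hspa5, Hsp90b1, Herpud1, Dnajc3 and Hsp90aa1 are higher on the 3 arrays at the left than on the 3 at the right, and Hspa1a is not. Dnajc3 is of low signal on every array but 37. Hsp90aa1 is barely apart, with 18.55 on array 27 and 18.53 on array 28.

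The ER stress element of Hspa5 was also found in the promoters of 6 other genes of that list, in 7 of the 19 that had a promoter entry. The element takes 5 and 5 fixed bases, shown in capitals, around 9 free ones, and each site is written in the direction of the motif. The sites are those of Hspa5 (chr3:38452973-38452991, plus strand), Hsp90b1 (chr7:23012451-23012469 and chr7:23012347-23012365, minus strand), Dnajc3 (chr15:102432534-102432552, plus), Canx (chr10:35158069-35158087, minus), Calr (chr19:40213135-40213153, plus), Creld2 (chr7:121789239-121789257, plus) and Xbp1 (chr14:84604558-84604576, plus), where the strand is that of the gene.
Hspa5, 43 to 25 bases before the start: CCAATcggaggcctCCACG
Hsp90b1, 176 to 158 bases before the start: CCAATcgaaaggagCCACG
Hsp90b1, 72 to 54 bases before the start: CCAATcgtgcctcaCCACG
Dnajc3, 133 to 115 bases before the start: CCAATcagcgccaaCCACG
Canx, 230 to 212 bases before the start: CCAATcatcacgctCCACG
Calr, 232 to 214 bases before the start: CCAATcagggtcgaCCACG
Creld2, 145 to 127 bases before the start: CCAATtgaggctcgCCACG
Xbp1, 65 to 47 bases before the start: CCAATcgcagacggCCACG

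The matches of Calr and Creld2 and the nearer one of Hsp90b1 are on the strand opposite to the gene. Hspa5, Hsp90b1, Dnajc3 and Canx, a lectin chaperone, did not overlap between the classes of control signal, with low minus high of 1.59, 2.35, 0.83 and 0.82. Calr, Creld2 and Xbp1 overlapped, with 0.14, -0.29 and -0.23. Creld2 on every array and Dnajc3 on every array but 37 lay below the markers Reln or Myh11, both near background throughout. Between genotypes Xbp1, a transcription factor of the response, was 11.62, 11.25 and 11.58 in the knockout animals against 11.80, 11.91 and 11.82 in the wildtype animals. Every knockout value lay below every wildtype value (difference -0.36, limma adjusted p = 0.999), opposite in sign to Hspa5, and it was not called.

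The wider chaperone network was read from 11 lists with 101 tested genes beside the 6. None was called between genotypes (limma; 3 at an unadjusted p under 0.05, beside 1.98% of all genes). 68 of the 101 (67.3%) lay above 0, with a median of 0.12, beside 54% and 0.033 of all genes, and 7 (6.93%) did not overlap, beside 6.25%. Among them were both main heat shock factors, in opposite directions. Hsf1 was 7.93, 8.93 and 8.20 in the knockout animals against 7.63, 7.21 and 7.91 in the wildtype animals (difference 0.77, unadjusted p = 0.0697, adjusted p = 0.999), without overlap. Hsf2 was 7.30, 7.73 and 7.80 against 8.34, 7.83 and 8.0 (difference -0.45, adjusted p = 0.999). Both were of low signal on several arrays. Hsf1 lay below the marker Reln, near background throughout, on arrays 28, 34 and 45. Hsf2 lay below Reln or Myh11, another marker near background throughout, on every array but 37. Hsbp1, which binds Hsf1, differed by 0.023, and Hsf4 stayed below the median of the negative control probesets on every array.

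Among J proteins 11 of 14 were above 0 with a median of 0.18, or 0.065 with the class of control signal as a block. The median was -0.0017 without knockout 52, 0.042 without wildtype 45, 0.07 without wildtype 34 and 0.42 without wildtype 37. Dnajb14, an ER membrane J protein, was 6.45, 6.18 and 6.0 in the knockout animals against 5.74, 4.85 and 5.28 in the wildtype animals (difference 0.92, unadjusted p = 0.026, adjusted p = 0.999), without overlap. On every array Dnajb14 lay below the lymphatic marker Reln, which was itself near background throughout, so its difference is of low signal. Dnajb12, the relative of Dnajb14 in the same membrane, differed by -0.48. Of the cochaperones 10 of 17 lay below 0 (median -0.087, or 0.062 without knockout 28). Bag2 was 3.69, 3.70 and 3.09 against 4.49, 5.16 and 3.76 (difference -0.98, unadjusted p = 0.0418, adjusted p = 0.999), near the median of the negative control probesets, 4.01 to 4.44. Bag3, an Hsf1-responsive partner of HSP70 and small heat shock proteins, was 12.55, 13.04 and 13.25 against 11.54, 10.93 and 13.12 (difference 1.08, adjusted p = 0.999), and it too was higher on every array of low control signal.

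The small heat shock proteins had a list median of 0.56 over 7 tested genes, 6 of them above 0. Among the 7, Hspb7 and Hspb9 lay near the negative control probesets. On each array Hspb2, Hspb6 and Cryab lay below the markers Reln or Myh11, both near background throughout. The list median is the value of Hspb6, so it is of low signal. The median was 0.205 without wildtype 34, 0.32 without wildtype 45, 0.32 without knockout 52 and 0.995 without wildtype 37. Hspb8, the partner of Bag3 in selective autophagy, was 7.85, 10.30 and 9.37 in the knockout animals against 8.14, 6.29 and 9.57 in the wildtype animals (difference 1.17), and Cryab differed by 0.59. With the class of control signal as a block the list median was 0.30. HSP70 and HSP110 genes had a median of 0.077 over 8 (0.13 without saturated Hspa8 and -0.023 without knockout 52), 7 above 0, with 0.50 for Hspa14 and 0.21 for Hspa2. HSP90 genes had 0.21 over 4, with 1.02 for Hsp90b1 and -0.26 for Trap1 of mitochondria. That median was 0.055 with the class as a block, 0.0575 without wildtype 45 and 0.395 without wildtype 37. Chaperonins, the ring-shaped folding machines, had a median of 0.023 over 10 (Cct4 -0.34, Tcp1 -0.54), which was -0.20 with the class as a block and -0.21 to 0.27 without single arrays. Mitochondrial quality control genes had -0.14 over 7 (0.013 without knockout 28), with 0.65 for the mitochondrial HSP70 Hspa9 and -0.24 for its exchange factor Grpel1. In the ER list Ddit3, the CHOP transcription factor, differed by 0.87 and Sel1l by 0.64. Of the immediate early genes of dissociation 12 of 13 lay above 0, beside 54% of all genes tested (median 0.16, or 0.33 without genes at the ceiling), with 0.78 for Fosb and 0.78 for Nr4a1. Egr1, Dusp1 and Zfp36 among the 12 lay within 0.5 of the maximum on all 6 arrays, so the ceiling limits the reading of their signs. Of the oxidative and metal stress genes 7 of 9 lay above 0 (median 0.42, or 0.03 with the class of control signal as a block, and 0.16 without wildtype 34 to 0.87 without wildtype 37), with 0.85 for Txnrd1 and 0.60 for Srxn1. Nqo1, Srxn1, Gclm and Gclc lay on each array below Reln or Myh11. The list median is the value of Nqo1, so it is of low signal. None of the genes of these lists was called (adjusted p = 0.999, limma). Hspb8, Cryab, Hspa14, Hsp90b1, Tcp1, Hspa9, Ddit3, Sel1l and Txnrd1 were also higher on every array of low control signal. Low minus high was 2.32 for Hspb8, 0.98 for Ddit3, 1.14 for Sel1l and 0.92 for Txnrd1. Hspb8 lay below Reln on each array of high control signal, so its values there are of low signal. Without the 6 chaperone genes 33 of 101 list genes (32.7%) were higher on every array of low control signal and 0 lower, beside 17.2% and 7.36% of all genes tested. Among the 33 were Dusp1 and Zfp36, at the ceiling on all 6 arrays, and Atf4 and Mt2A, at the ceiling on some. Near the ceiling such a difference can follow the array maxima.

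**Figure D4:**
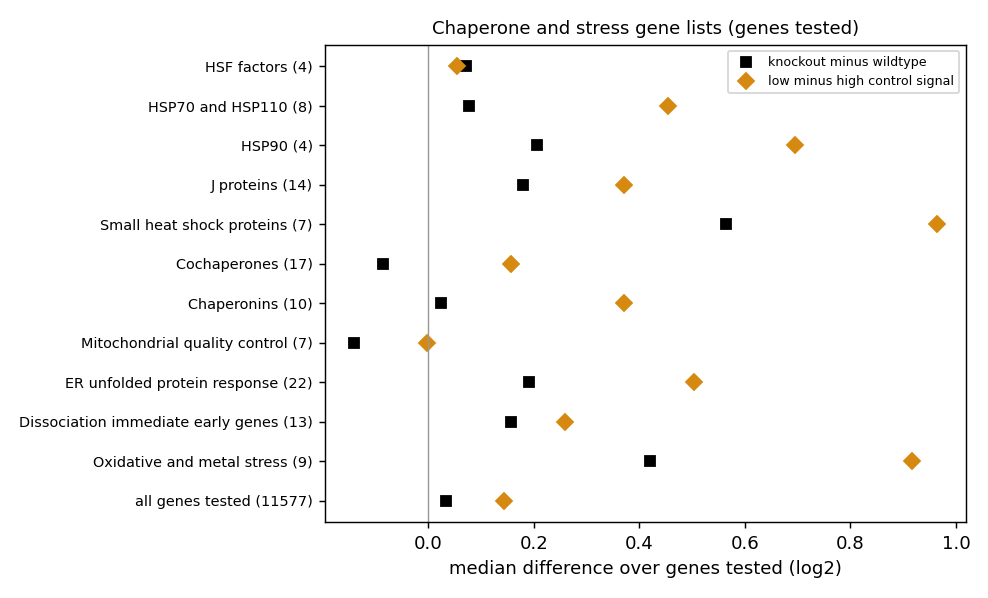
Median difference on the log2 scale over the tested genes of each chaperone or stress list, with the number tested in brackets, for knockout minus wildtype (black squares) and for arrays of low minus high control signal (orange diamonds). The second median is higher than the first in every list but the HSF factors, and also over all genes tested, where the medians are 0.033 and 0.14.

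The genes with profiles most like each chaperone gene were found by the root mean square difference between log2 profiles over the 6 arrays, each centred on its own mean. This is a distance over 6 arrays and no test, and a gene of small spread has many near neighbours. Nearest to Hspa5 were Arl6ip1 (0.11), a protein that shapes the ER membrane, Nectin3 (0.12) and Ppm1d (0.13). Nearest to Hspb1 were Smad6 (0.43), Zbbx (0.45) and Ch25h (0.47), at larger distances. Hspa1a lay near Vmo1 (0.067), the ribosomal protein gene Rps16 (0.080) and C2h1orf56 (0.088), Hsp90aa1 near Sdhaf2 (0.045), Ctdspl2 (0.051) and Tmprss11g (0.053), and Hsph1 near Myo7a (0.091), Galntl5 (0.11) and Dclk1 (0.13). Vmo1, C2h1orf56, Tmprss11g and, on most arrays, Galntl5 and Myo7a were near or below the median of the negative control probesets, as Zbbx was on 3 arrays.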

How the data were processed

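The authors deposited 1 table of log2 expression values per probeset, made with Expression Console of Affymetrix and its RMA method, per the submitters' processing notes. The sources used here give no versions, probeset library or build. The reading as log2 rests on that entry and on the range, 1.60 to 19.93. Labelling started from 100 ng of RNA, per the labels' protocols. Values were used as deposited.

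Of 24834 probesets 1646 are controls, 15049 have 1 symbol, 0 several, and 8139 are unnamed here. Of the 10 symbols with several probesets, the one brightest on average stood for the gene. Genes averaging below the 25th percentile of the non-control probesets (3.51), 3460 in all, were dropped, which left 11577. Genotype alone was fitted with lmFit and eBayes of limma 3.58.1 (R 4.3.3), two-sided, adjusted by Benjamini-Hochberg over all genes with a threshold of 0.05. Sex and the interaction were fitted beside genotype. An exact permutation test of 3 against 3 cannot go below 0.1 and was not used. The number of arrays limits the precision. The fit was tested on simulated data. Members and lists were chosen with earlier results of these data known. Named are the 6 measured genes, Il33, the genes called, the 2 other genes of smallest p in each list, the 3 nearest profiles, and further list genes chosen after their values were seen. Alternatives are in the closing section; protein sequences were not analysed here.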

Additional observations from a re-analysis of the deposited data

How the results depend on the processing

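No chaperone gene was called under any of the 18 alternatives to the comparison of genotypes, with lowest limma adjusted p-values of 0.521 for Hspa5, 0.749 for Hspb1, 0.80 for Hsph1, 0.81 for Hsp90aa1, 0.95 for Hspa1a and 0.96 for Hspa8. Hspa5 (0.003 to 1.32) and Hsp90aa1 (0.085 to 0.38) stayed above 0 in all 18, and Hsph1 ranged from 0 to 0.70. Hspa1a turned with quantile normalization again (-0.10), in females only (-0.17) and with array weights (-0.011), and ranged from -0.13 to 0.21 on leaving out single arrays. Saturated Hspa8 turned with the control signal as a block (-0.023) and with the keratinocyte median as a covariate (-0.030), and ranged from -0.027 to 0.093 without single arrays. Hspb1 ranged from -0.15 to 1.11 without single arrays. The inducible median was 0.505 in females only and 0.125 to 0.45 without single arrays. The 1 gene called, Il33, became 0 with no filter, with a filter at the 50th percentile, in females only and with each probeset on its own; without single arrays 0 to 1 were called. The 3 genes called between sexes ranged from 2 to 74 when single arrays were left out, the latter without knockout 27. Counting values within 0.05 or 1.0 of the maximum flagged the same 1 gene, Hspa8. List medians changed sign in 12 of 99 alternatives. The block and the shortened lists among those, and differences within the classes of control signal, were chosen after seeing the data. No paired analysis was made because the labels used here name no pairs of animals. The cause of these shifts was not tested. Saturation limits what can be said of Hspa8. The ceiling also limits Egr1, Dusp1 and Zfp36 on all arrays, and Atf4 and Mt2A on some. Signal near the negative control medians limits Bag2, Hsf4, Hspa4l, Hspb7 and Hspb9, and on some arrays Hspb2, Srxn1 and Dnajb5, among others. On each array Dnajb14, Srxn1, Cryab, Hspa14, Hspb6, Nqo1, Gclm, Gclc and Creld2 lay below the markers Reln or Myh11, both near background throughout. Dnajc3 and Hsf2 did so on every array but 37.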
